A study of Mus musculus with 5 samples.

Results

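Endothelial identity genes were examined in H3K4 chromatin profiles of neonatal mouse heart cells, as the 10 genes Pecam1, Cdh5, Kdr, Flt1, Tek, Tie1, Erg, Sox17, Vwf and Emcn, out of 25017 gene symbols in the deposited table. All peaks carrying one of these symbols were taken, 46 of 85275 peaks. The main peak of a gene was the peak with the highest mean signal over the 4 H3K4 libraries, and other peaks were followed where at least 2 of these libraries held 1 CPM or more (CPM being the read count scaled to a library's total reads in peaks). All 10 genes had a main peak that passed this level, and 37 of their 46 peaks passed in all.

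The study profiled cardiomyocytes isolated from hearts of newborn mice by CUT&RUN, a method that frees the DNA around a chromatin mark with an antibody-guided nuclease. The groups were 2 H3K4 libraries of cells treated for 72 h with a short hairpin RNA against Kdm5b (Kdm5b-ShRNA-IL in the labels), 2 H3K4 libraries of cells treated with its control (Control-ShRNA-IL), and 1 negative control library of cells that also received Control-ShRNA-IL. Kdm5b encodes a demethylase of lysine 4 of histone H3. Not given in the sources used here are the methylation state that the H3K4 antibody recognises, the antibody of the negative control, the mouse strain, the number of hearts per library and the meaning of the ending IL. Hearts were taken on postnatal day 1 according to the protocol, whereas the cell type label carries a postnatal number that differs in each of them. If that number were the age, age and knockdown could not be told apart. The labels do not state whether libraries of a group are separate cultures, so p-values here reflect spread among libraries alone, which may be technical.

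Endothelial cells line the vessels and the chambers of the heart and are a different cell type from the cardiomyocytes named in the labels. Their identity is kept by transcription factors of the ETS and SoxF families, among them Erg and Sox17, which act on genes of cell junctions and of the VEGF and angiopoietin receptors. Methylation of H3K4 at gene starts is a mark of active or poised genes, and in mammals it is commonly found at starts rich in CpG dinucleotides. In a preparation of many cells, fewer cells of a type and less signal per cell cannot be told apart.

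The DNA just upstream of the start of 5 of these genes is shown because the genes differ widely in CpG content, the sequence feature named above. The 250 bases before the annotated start are printed 5′ to 3′ on the gene's strand from RefSeq (GRCm38.p6), with each CpG in capitals. The peaks are in the GRCm39 build, so these bases were not placed against the peaks.
Flt1: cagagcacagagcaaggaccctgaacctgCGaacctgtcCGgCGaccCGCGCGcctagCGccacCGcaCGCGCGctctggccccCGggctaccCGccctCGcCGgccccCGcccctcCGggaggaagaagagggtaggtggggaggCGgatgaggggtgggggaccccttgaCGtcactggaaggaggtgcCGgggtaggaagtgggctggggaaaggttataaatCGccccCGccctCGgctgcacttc
Kdr: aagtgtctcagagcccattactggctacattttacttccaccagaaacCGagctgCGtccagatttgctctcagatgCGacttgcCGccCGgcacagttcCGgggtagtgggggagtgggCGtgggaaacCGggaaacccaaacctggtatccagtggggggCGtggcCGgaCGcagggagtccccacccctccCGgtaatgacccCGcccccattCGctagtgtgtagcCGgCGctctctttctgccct
Tie1: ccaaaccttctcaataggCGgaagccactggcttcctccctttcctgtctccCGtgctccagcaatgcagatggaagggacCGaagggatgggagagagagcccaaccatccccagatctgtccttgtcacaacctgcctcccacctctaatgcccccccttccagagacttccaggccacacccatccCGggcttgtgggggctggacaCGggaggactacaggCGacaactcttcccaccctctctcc
Tek: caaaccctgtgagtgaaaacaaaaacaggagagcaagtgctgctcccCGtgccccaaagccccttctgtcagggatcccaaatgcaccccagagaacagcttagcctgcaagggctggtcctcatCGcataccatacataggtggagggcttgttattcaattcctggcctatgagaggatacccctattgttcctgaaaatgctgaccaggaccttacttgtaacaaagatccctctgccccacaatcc
Emcn: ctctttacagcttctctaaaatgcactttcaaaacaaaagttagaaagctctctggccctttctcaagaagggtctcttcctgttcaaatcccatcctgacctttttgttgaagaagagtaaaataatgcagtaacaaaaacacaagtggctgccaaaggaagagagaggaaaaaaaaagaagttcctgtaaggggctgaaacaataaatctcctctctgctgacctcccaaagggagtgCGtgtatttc
They lie at chr5:147726012-147726261 (Flt1, minus strand), chr5:75978456-75978705 (Kdr, minus strand), chr4:118489850-118490099 (Tie1, minus strand), chr4:94739039-94739288 (Tek, plus strand) and chr3:137340828-137341077 (Emcn, plus strand). CpG counts were 23 at Flt1, 16 at Kdr, 6 at Tie1, 2 at Tek and 1 at Emcn. Among 32851 RefSeq starts, 86.7% had fewer CpGs than Flt1 and 7.87% had fewer than Emcn. Erg, the sixth gene matched, has 3 annotated starts with 14, 2 and 3 CpGs. Pecam1, Cdh5, Sox17 and Vwf were not matched.

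Short motifs were counted in the same 250 bases on both strands. The ETS core CGGAA occurred at Kdr and Tie1 (25.2% of all starts hold it), and at Kdr it was part of the longer CCGGAA (12.03% of starts). The SOX core ACAAT occurred at Emcn once and at Tek 2 times (27.7% of starts), and the TATA-like TATAAA at Flt1 (12.4% of starts). The GATA core AGATAA occurred at none of the 5 printed starts (9.99% of starts hold it). These are matches of letters only.

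Across all genes matched by symbol to a RefSeq start (15155 genes, with the most CpG-rich start taken where a gene has several), signal followed CpG content, in the H3K4 libraries and in the negative control. The main peak held a median of 61.4 CPM in the knockdown and 58.6 CPM in the control libraries at the 6045 genes with 16 or more CpGs, where Flt1 and Kdr belong. At the 2173 genes with at most 2 CpGs, where Tek and Emcn belong, the medians were 2.15 CPM in the knockdown and 2.62 CPM in the control libraries. Tek and Emcn, at 41.6 and 24.5 CPM in the knockdown libraries, thus stood well above the median of genes with as few CpGs. So did the negative control, with 46.5 CPM at Tek and 29.1 CPM at Emcn, against a class median of 8.19 CPM, and its median at genes with 16 or more CpGs was 35.9 CPM. Kdr, at 38.6 CPM, stood below the median of its own class, and Flt1, at 101 CPM, above it. For Tie1, at 15.8 CPM, the class of 3 to 7 CpGs had a median of 5.14 CPM in the knockdown libraries.

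Reads in peaks ranged from 18710132 to 31068085 in the 4 H3K4 libraries and came to 3784381 in the negative control. Libraries are numbered 3 and 4 in each group after the table's columns, and these numbers do not match those of the sample titles. Kdm5b itself had 40.7 and 46.2 CPM at its main peak in the knockdown libraries, against 46.3 and 43.6 CPM in the control libraries, with 21.9 CPM in the negative control, and H3K4 signal there does not measure the mRNA that the hairpin targets. The cell type label was set against cardiomyocyte markers: 11 of 12 were analysed, and their median main peak held 123 CPM in the knockdown libraries, 128.1 CPM in the controls and 125 CPM in the negative control. Of blood and immune markers 5 of 12 were analysed, with medians of 1.59, 2.52 and 6.87 CPM in the same order. The endothelial identity genes lay between these lists, with medians of 33.3 CPM in the knockdown libraries, 30.5 CPM in the controls and 43.6 CPM in the negative control. The lists stood in the same order in the negative control, so these levels cannot check the cell type label.

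The endothelial adhesion molecules are described first. Pecam1 encodes the junctional protein known as CD31, which is also found on platelets and white blood cells. Its main peak spans 106603399 to 106606686 of chromosome 11 (GRCm39, as are all peak positions) and held 28.14 and 28.003 CPM in knockdown libraries 3 and 4, against 25.8 and 24.1 CPM in control libraries 3 and 4 and 40.7 CPM in the negative control. Both knockdown libraries lay above both control libraries, and all 4 lay below the negative control. Cdh5 encodes VE-cadherin, the adhesion protein of endothelial junctions, and its main peak lies on chromosome 8 from 104827774 to 104832119. It held 38.8 and 41.7 CPM in the knockdown libraries, against 39.4 and 32.7 CPM in the control libraries, with 64.5 CPM in the negative control. At Cdh5 the groups overlapped, since control library 3 lay between the knockdown libraries. Emcn encodes endomucin, a sialoglycoprotein of capillary and venous endothelium, with a main peak on chromosome 3 from 137046357 to 137050020. It held 25.6 and 23.5 CPM in the knockdown libraries, against 23.04 and 22.1 CPM in the control libraries, with 29.1 CPM in the negative control, so the groups did not overlap, by a narrow margin.

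Among the receptors, Flt1, which encodes the VEGF receptor that also circulates as a soluble trap for the ligand, had the strongest main peak of the 10 genes. It spans 147658408 to 147663539 of chromosome 5 and held 101 CPM in each knockdown library, against 86.6 and 94.0 CPM in the control libraries, with 115 CPM in the negative control. These values rest on 2142 and 3148 reads in the knockdown, 1620 and 1786 reads in the control and 435 reads in the negative control library. The knockdown libraries lay above the control libraries. Kdr encodes the main signalling receptor for VEGF in endothelium, and its peak on chromosome 5 from 76138087 to 76140030 was its only peak in the table. It held 37.3 and 39.9 CPM in the knockdown libraries, against 37.4 and 36.4 CPM in the control libraries, with 57.6 CPM in the negative control, and the groups overlapped.

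Tek encodes Tie2, the receptor for angiopoietins, and had its main peak on chromosome 4 from 94626702 to 94630822. It held 42.2 and 41.0 CPM in the knockdown libraries, against 40.3 and 35.7 CPM in the control libraries, with 46.5 CPM in the negative control. The knockdown libraries lay above the control libraries at Tek, and control library 3 came close to them. Tie1 encodes a related receptor that acts together with Tie2, and its only peak lies on chromosome 4 from 118344283 to 118347550. It held 16.9 and 14.7 CPM in the knockdown libraries, against 13.5 and 14.0 CPM in the control libraries, with 40.4 CPM in the negative control, with no overlap between knockdown and control.

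Of the transcription factors, Erg, an ETS factor that maintains endothelial identity, had the widest main peak, 5332 bp on chromosome 16 from 95255121 to 95260453. It held 52.7 and 51.3 CPM in the knockdown libraries, against 47.3 and 44.2 CPM in the control libraries, with 81.1 CPM in the negative control, again without overlap. Sox17, a SoxF factor of arterial endothelium, had the weakest and narrowest main peak, 473 bp on chromosome 1 from 4562823 to 4563296. It held 4.98 and 5.79 CPM in the knockdown libraries, against 5.18 and 6.84 CPM in the control libraries, with 33.3 CPM in the negative control. The groups overlapped at Sox17, and the negative control stood far above all 4 H3K4 libraries.

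Vwf encodes von Willebrand factor, the clotting protein that endothelial cells store in Weibel-Palade bodies. Its only peak spans 125549430 to 125551004 of chromosome 6 and held 9.30 and 8.98 CPM in the knockdown libraries, against 9.89 and 9.42 CPM in the control libraries, with 16.9 CPM in the negative control. It was the only one of the 10 genes at which both knockdown libraries lay below both control libraries.

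**Figure D1:**
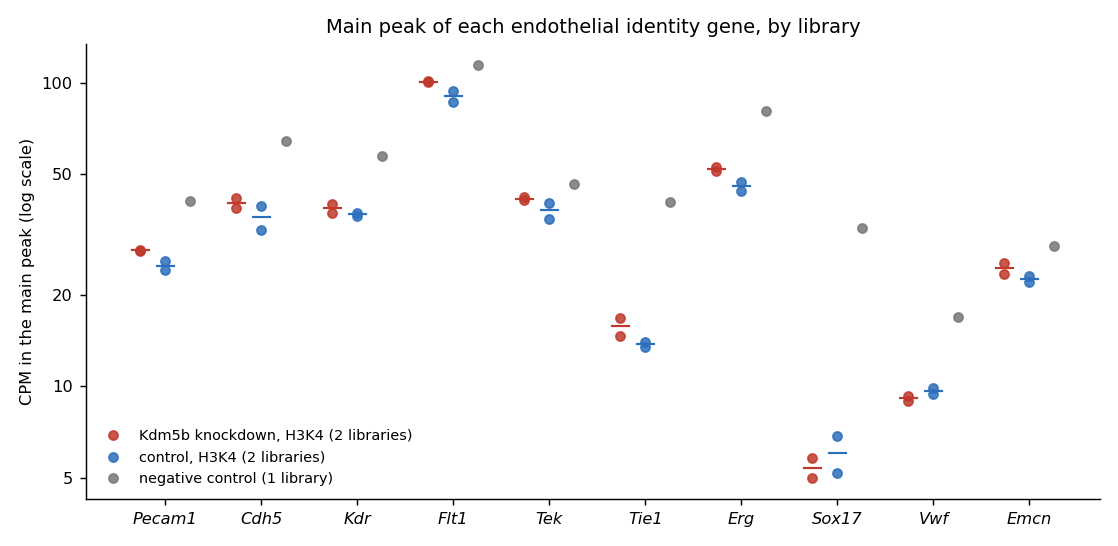
CPM in the main peak of each gene (log scale), by library; points are libraries and short lines the means of 2 libraries, with knockdown left, control in the middle and the negative control right. The grey point lies above every H3K4 library at all 10 genes, from 115 CPM at Flt1 to 16.9 CPM at Vwf.

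Since the main peaks differ in width from 473 to 5332 bp, their levels were compared per kilobase. In the knockdown libraries the order ran from Kdr at 19.9 ± 0.921 CPM per kb (SD, n = 2) and Flt1 at 19.7 ± 0.0956 CPM per kb to Sox17 at 11.4, Tek at 10.1, Erg at 9.75, Cdh5 at 9.26, Pecam1 at 8.54, Emcn at 6.69, Vwf at 5.81 and Tie1 at 4.83 CPM per kb. Kdr and Flt1 overlapped between libraries, and the other neighbours in this order did not. In the control libraries the order of the genes was the same, from 19.0 ± 0.362 CPM per kb at Kdr to 4.21 ± 0.103 CPM per kb at Tie1. There Tek, Erg, Cdh5 and Pecam1 overlapped from each to the next, as did Emcn and Vwf, so their order is within the spread. In the negative control Sox17 came highest instead, at 70.4 CPM per kb, and Emcn lowest, at 7.94 CPM per kb.

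Set against the negative control, the 10 genes showed no enrichment on the deposited scale. The mean of the knockdown libraries lay below the negative control at 10 of 10 main peaks and the mean of the control libraries at 10 of 10, and 0 reached 2-fold over it in either group. Over the main peaks of all 21835 genes tested, 56.1% lay below the negative control in the knockdown and 56.2% in the control libraries, and 17.8% and 14.6% reached 2-fold over it. Over all tested peaks 82.7% lay below it in the knockdown and 82.7% in the control libraries, and 6.81% and 5.55% reached 2-fold. The CPM of the knockdown libraries came to 0.895 of the negative control at Tek, 0.878 at Flt1 and 0.843 at Emcn, the 3 nearest to it, and to 0.391 at Tie1 and 0.162 at Sox17, the 2 farthest below. In the control libraries the same ratios were 0.817, 0.785, 0.776, 0.340 and 0.181. The median log2 ratio over the 10 genes was -0.60 in the knockdown and -0.72 in the control libraries, where all gene main peaks had -0.49 in the knockdown and -0.43 in the control libraries. Gene main peaks between the lowest and the highest signal of the 10 genes had 0.37 and 0.34 in the same order. Of these, 39.5% lay below the negative control in the knockdown and 39.8% in the control libraries. With 1 negative control library no test of these ratios was run.

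The sign of these ratios depends on the scaling. With TMM scaling over all 5 libraries the ratio was positive at 9 of the 10 genes in the knockdown and at 8 in the control libraries, with Sox17 still below the negative control in both groups. The median over all tested peaks was then higher by 1.11 in the knockdown and by 1.03 in the control libraries on the log2 scale. The median over all gene main peaks went from -0.49 to 0.92 in the knockdown and from -0.43 to 0.80 in the control libraries. That of the 10 genes went from -0.60 to 0.87 and from -0.72 to 0.54 in the same order. With that scaling 3 genes (Flt1, Tek and Emcn) reached 2-fold over the negative control in the knockdown libraries and 1 (Tek) in the control libraries, where 49.0% and 47.3% of all gene main peaks were.

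The rank of a gene among peaks of like height was therefore used to place the 10 genes. Among gene main peaks with nearly the same mean signal (at most 25% higher, or lower by the same factor), the share with a lower ratio to the negative control was 0.307% for Sox17 (of 1303 peaks), 1.18% for Flt1 (of 2467), 2.57% for Erg (of 2838), 5.33% for Cdh5 (of 2362) and 7.07% for Kdr (of 2335). It was 13.1% for Tek, 15.5% for Tie1 and 19.0% for Pecam1. Only Emcn, at 41.5%, and Vwf, at 73.3%, were above 20%. These peaks were matched on CPM and not on width. Flt1 (5131 bp), Erg (5332 bp) and Cdh5 (4345 bp) are wider than the median of 2440 bp for gene main peaks in the signal range of the 10 genes. Kdr (1943 bp) and Sox17 (473 bp) are narrower. The part of width in the ranks was not tested. The ranks are a description of these libraries, and no test was run on them.

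The main peaks of the negative control hold 64 reads (Vwf) to 435 reads (Flt1), fewer than any H3K4 library at 9 of the 10 genes. Sox17 is the exception, with 106 and 180 reads in the knockdown and 97 and 130 reads in the control libraries, against 126 reads in the negative control. The exact 95% Poisson interval of its CPM at Tek ran from 39.9 to 53.9 and at Emcn from 23.9 to 35.03, which includes the knockdown means of 41.6 and 24.5 CPM. At the other 8 genes the knockdown mean lay below this interval, and the control mean did so at 10 of 10. Such intervals cover counting error only.

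**Figure D2:**
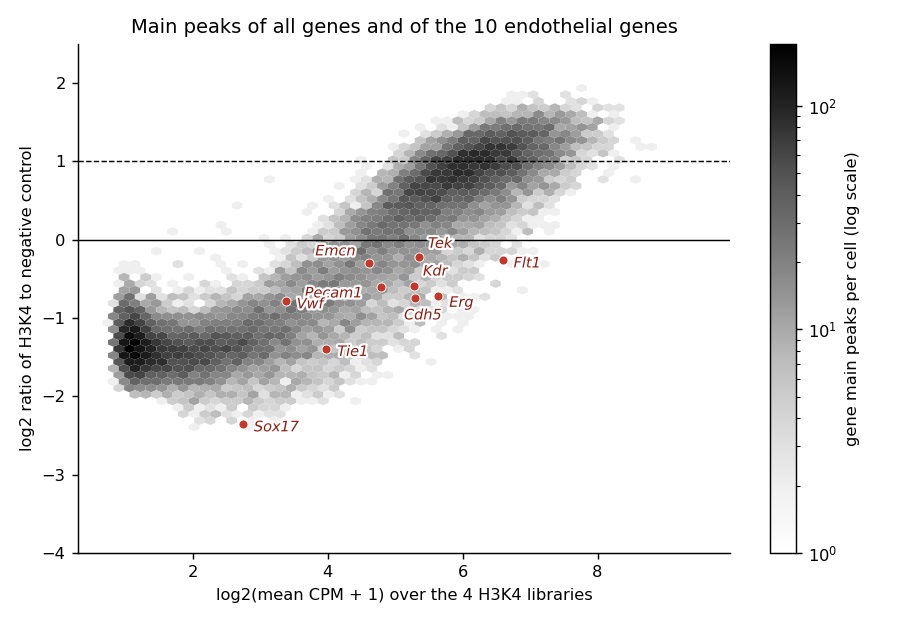
Mean signal of the 4 H3K4 libraries, as log2(CPM + 1), against the log2 ratio of that mean to the negative control, for the main peaks of 21835 genes (grey cells, darker for more genes) and the 10 endothelial genes (red points, named). The solid line marks equality and the dashed line 2-fold; all 10 points lie under the solid line, and Sox17, Flt1, Erg, Cdh5 and Kdr lie along the lower edge of the cloud at their height.

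The knockdown was then compared with the control by limma on log2(CPM + 1), fitted over all 58072 tested peaks. At 0 of the 10 main peaks did the signal pass the threshold of 0.05 after Benjamini-Hochberg adjustment, whereas 1720 of all tested peaks did (2.96%; 1.33% higher and 1.63% lower in the knockdown), and 1176 of the 21835 gene main peaks (5.39%; 3.4% higher and 1.98% lower). At that share fewer than 1 in 10 would be called, so 0 of 10 is near the background. At an unadjusted p of 0.05 there were 2 of 10, Flt1 and Erg, and 22.3% of all gene main peaks. By edgeR's quasi-likelihood test and by DESeq2 on the recovered reads the count was also 0.

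The values nonetheless leaned to one side at the stronger peaks, without a call. At Flt1 the knockdown libraries averaged 101 ± 0.490 CPM and the control libraries 90.3 ± 5.24 CPM (SD, n = 2 each), which gave 0.16 on the log2 scale (SE 0.06) with a limma adjusted p of 0.110. At Erg the means were 52.0 ± 1.02 CPM in the knockdown and 45.8 ± 2.19 CPM in the control libraries, which gave 0.18 on the log2 scale (SE 0.07) with a limma adjusted p of 0.181. Cdh5 had 0.16 (SE 0.08, limma adjusted p = 0.306) and Pecam1 0.16 (SE 0.09, limma adjusted p = 0.364). The angiopoietin receptor gene Tek had 0.13 (SE 0.08), its relative Tie1 0.18 (SE 0.12), Emcn 0.11 (SE 0.10) and Kdr 0.06 (SE 0.08). The remaining genes had negative values, Vwf with -0.07 (SE 0.14) and Sox17 with -0.13 (SE 0.18), and these were the 2 weakest main peaks. Both signs turn under some scalings: Sox17 had 0.11 and Vwf 0.17 with median centring, where the median of all tested peaks was 0.10, while the 8 positive values stayed positive under every scaling run. Leaving out 1 library lowered 6 of these values by over 1.5 times, with no change of sign: without control library 4 Cdh5 had 0.029 and Tek 0.045, without knockdown library 3 Tie1 had 0.090 and Emcn 0.054, without knockdown library 4 Kdr had 0.017, and without control library 3 Flt1 had 0.10. All 10 values lay within 1.15-fold of no change as a ratio of mean CPM, from 0.896 at Sox17 to 1.15 at Tie1.

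Both knockdown libraries lay above both control libraries at 6 of the 10 main peaks and below them at 1. Over all gene main peaks this was so at 25.6% and 25.9%, and at 32.7% (above) of the 11681 gene main peaks between the lowest and the highest signal of the 10 genes. The median log2 fold change of the 10 was 0.14, beside -0.01 over all gene main peaks, 0.03 over those in that signal range and -0.14 over all tested peaks. The median of the 10 was 0.065 without control library 4, 0.25 with TMM scaling and 0.38 with median centring. Fold changes were higher at stronger peaks over the whole table. Of the gene main peaks from 20 to under 50 CPM 59.6% had a positive fold change, and so had the 6 endothelial genes in that class. Of those under 10 CPM 24.4% were positive, and 0 of the 2 endothelial genes there.

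The main peaks of the 10 genes summed to 357 and 356 CPM in the knockdown libraries, against 328 and 319.6 CPM in the control libraries, with 525 CPM in the negative control. The knockdown libraries were close together and above both control libraries. The log2 difference of the sums was 0.14 (exact 2-sided permutation p = 0.333, below which this design cannot go). Without Flt1, the strongest peak, the difference was 0.13.

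**Figure D3:**
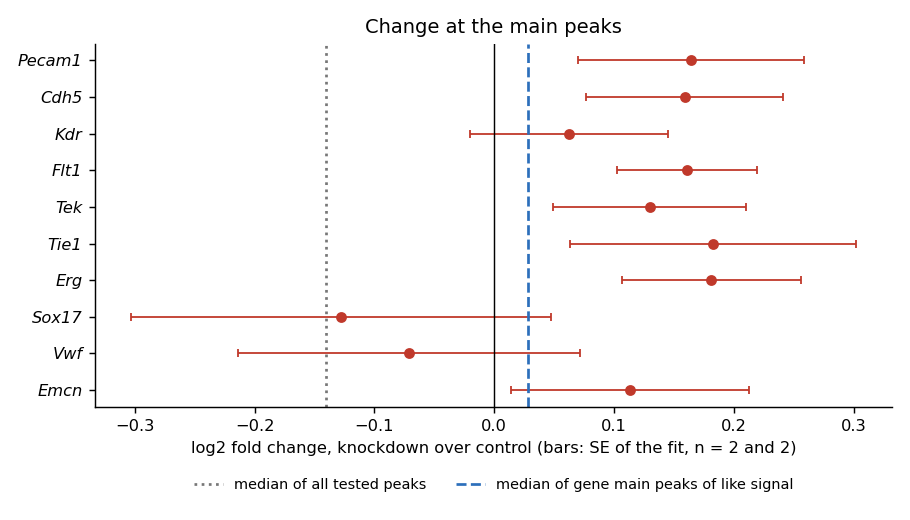
Log2 fold change of knockdown over control at each main peak, with the SE of the limma fit as bars (n = 2 and 2 libraries). The 8 genes from Pecam1 to Erg and Emcn lie right of 0 and Sox17 and Vwf left of it; the dotted line is the median of all tested peaks (-0.14) and the dashed line that of gene main peaks of like signal (0.03).

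The other peaks of these genes were weak and leaned the other way. There were 27 of them, 7 each at Pecam1 and Flt1, 5 at Erg, 4 at Tek and 2 each at Cdh5 and Emcn, with a median width of 578 bp. All 27 lay below the negative control in both groups, as did 99.9% of non-main peaks of like signal in the knockdown libraries. The strongest was a 2032 bp peak at Flt1 on chromosome 5 from 147556914 to 147558946, 103 kb from the main peak between centres. It held 14.6 and 16.1 CPM in the knockdown libraries, against 16.8 and 15.7 CPM in the control libraries, with 20.1 CPM in the negative control, and the groups overlapped.

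Of the 27 other peaks 23 had a negative and 4 a positive log2 fold change, with a median of -0.19, and 0 passed the threshold (2 at an unadjusted p of 0.05). Non-main peaks of the same signal range had a median of -0.24, and 19.5% of them were positive, so the share at the endothelial genes is near the background. The largest negative value was at a 595 bp peak of Pecam1 on chromosome 11 from 106568769 to 106569364. It held 1.41 and 1.29 CPM in the knockdown libraries, against 3.10 and 2.37 CPM in the control libraries, with 6.61 CPM in the negative control (log2 fold change -0.66, SE 0.27, limma adjusted p = 0.165). Both knockdown libraries lay below both control libraries there, as at 9 of the 27 peaks. This pattern was held by 41.4% of non-main peaks of the same signal range and by 35.4% of all tested peaks. The main peak and the other peaks thus had values of opposite sign at Pecam1, Cdh5, Flt1 and Emcn, whereas at Tek 3 of its 4 other peaks were positive. The sum over the 27 was 72.2 and 62.1 CPM in the knockdown libraries, against 87.8 and 75.9 CPM in the control libraries, with 212 CPM in the negative control (exact 2-sided permutation p = 0.333).

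**Figure D4:**
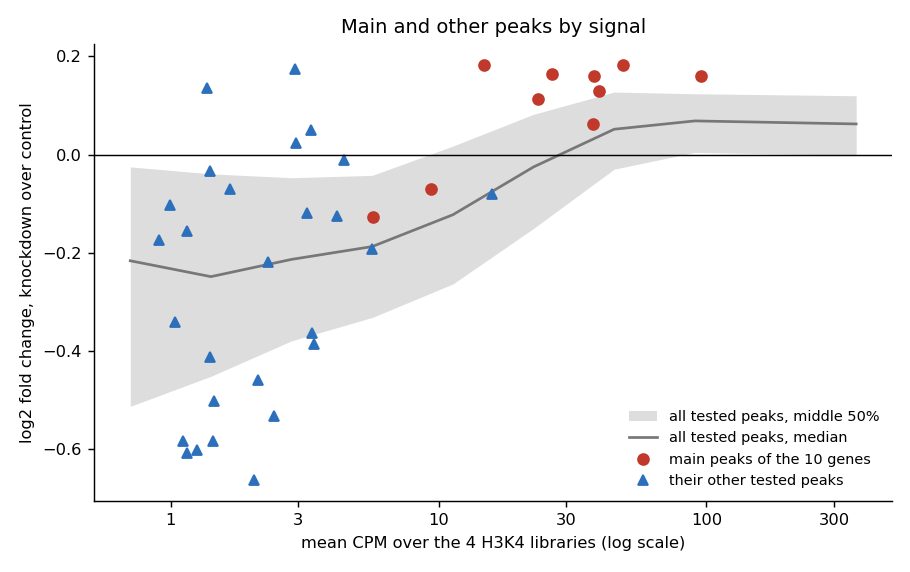
Log2 fold change of knockdown over control against the mean CPM of the 4 H3K4 libraries (log scale), for the 10 main peaks (circles) and the 27 other tested peaks (triangles) of the endothelial genes; the line and band are the median and middle 50% of all tested peaks by signal. The triangles scatter around the line below 20 CPM, and the circles lie on or above it.

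Other genes of the endothelial programme were read from wider lists, with 1 main peak per gene. Their calls come from the main limma fit, and whether a listed gene was called under other settings is not given. Over all tested peaks that fit gave 1720 calls, against 1399 with quantile normalization, 89 with TMM and 19 in DESeq2. Each count of calls below is to be read against all gene main peaks, of which 3.4% were called higher and 1.98% lower (5.39% in all). The lists were chosen with earlier results of these data known, so the counts are a description only. Of 18 analysed further transcription factors 1 rose and 0 fell, with a median log2 fold change of 0.02, a count near that background. Mecom, a zinc finger factor, rose to 111 ± 3.57 CPM in the knockdown libraries, against 95.9 ± 1.503 CPM in the control libraries (SD, n = 2 each, limma adjusted p = 0.016). The ETS factor gene Fli1, a close relative of Erg, had 143 and 129 CPM (limma adjusted p = 0.088), and Sox7, a SoxF relative of Sox17, had 49.0 and 43.5 CPM (limma adjusted p = 0.232), in knockdown and control libraries. Unlike the 10 genes, this list had a positive median log2 ratio to the negative control, 0.17 in the knockdown and 0.09 in the control libraries. Its main peaks were also stronger, with a median of 107 CPM in the knockdown libraries, against 33.3 CPM at the 10 genes. Over all gene main peaks the median log2 ratio rose with signal, from 0.33 at 20 to under 50 CPM to 0.92 at 50 to under 110 CPM. The lists were thus not matched in height.

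Of 23 analysed surface and junction genes 1 rose and 1 fell, with a median of 0.05, or 2 calls in 23 genes. Ptprb, which encodes the endothelial phosphatase VE-PTP that acts on Tie2 and VE-cadherin, rose to 45.6 ± 1.42 CPM in the knockdown libraries, against 36.4 ± 1.60 CPM in the control libraries, with 85.4 CPM in the negative control (SD, n = 2 each, limma adjusted p = 0.0080). Tinagl1, a matricellular protein gene, fell to 4.25 ± 0.228 CPM, against 7.11 ± 0.147 CPM (SD, n = 2 each, limma adjusted p = 0.022). Cav1, the gene of caveolin, had 139 CPM in the knockdown and 124 CPM in the control libraries (limma adjusted p = 0.058). The median of this list lay below the negative control, with a log2 ratio of -0.89 in the knockdown and -1.02 in the control libraries. Of its 23 genes 18 lay below in the knockdown and 19 in the control libraries, where all 10 endothelial identity genes did. Cav1 lay above its negative control value of 77.2 CPM in both groups.

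The ligands and co-receptors of the VEGF and angiopoietin pathways gave 0 calls among 8 analysed genes, with a median of -0.055. Nrp2, a VEGF co-receptor gene, had 190.4 CPM in the knockdown and 173 CPM in the control libraries (limma adjusted p = 0.068). Angpt2, a ligand of Tie2, had 42.4 CPM in the knockdown and 49.3 CPM in the control libraries (limma adjusted p = 0.118), and Vegfc, a ligand that acts on lymphatic vessels, had 85.5 and 76.5 CPM in the same order (limma adjusted p = 0.155). In the Notch and ephrin list 0 of 10 rose and 1 fell, the Notch ligand gene Jag2, to 17.7 ± 0.309 CPM in the knockdown against 23.1 ± 0.985 CPM in the control libraries (SD, n = 2 each, limma adjusted p = 0.027). Efnb2, an arterial ephrin ligand gene, had 231 CPM in the knockdown and 216 CPM in the control libraries (limma adjusted p = 0.240), and the Notch ligand gene Dll1 had 83.1 and 90.7 CPM in the same order (limma adjusted p = 0.257).

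Among 8 analysed endocardial and coronary genes, Nrg1 (108 CPM in the knockdown against 92.4 CPM in the control libraries) and Adgrg6 (50.7 against 41.4 CPM) rose, and Apln, which encodes the peptide ligand apelin, fell (15.4 against 20.5 CPM). Nrg1 encodes neuregulin, the growth factor by which endocardium acts on cardiomyocytes. Of 6 lymphatic genes 1 rose, Pdpn, which encodes podoplanin, to 60.5 ± 0.136 CPM in the knockdown against 47.2 ± 0.553 CPM in the control libraries (SD, n = 2 each, limma adjusted p = 0.00039). Podoplanin is also made by mesothelial cells. Reln, which encodes the secreted glycoprotein reelin, had 11.8 CPM in the knockdown and 14.9 CPM in the control libraries, lower in both knockdown libraries, and did not pass (limma adjusted p = 0.169). The lymphatic VEGF receptor gene Flt4 had 26.2 CPM in the knockdown and 23.1 CPM in the control libraries and did not pass (limma adjusted p = 0.332).

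Markers of other heart cell types moved in the same libraries, where 3.4% of all gene main peaks were called higher and 1.98% lower. These lists too were chosen with earlier results of these data known, so their counts are a description and no independent test. Their calls, too, are those of the main limma fit alone. Of 12 epicardial markers 9 rose and 0 fell, with a median log2 fold change of 0.38. Their main peaks summed to 655 and 659 CPM in the knockdown libraries, against 534 and 514 CPM in the control libraries. The negative control held 1152 CPM there, and 10 of the 12 lay below it in the knockdown and 11 in the control libraries. A rise between the groups was thus mostly at peaks below the negative control on the deposited scale. Ratios of this list with TMM scaling are not given. Of 10 fibroblast markers 7 rose and 0 fell, with a median of 0.24. Their sums were 909 and 899 CPM in the knockdown, against 767 and 750 CPM in the control libraries, with 756 CPM in the negative control. Of 11 cardiomyocyte markers 0 rose and 5 fell (Myh6, Mybpc3, Nppa, Ryr2 and Tnni3), with a median of -0.15. Their sums were 1712 and 1714 CPM in the knockdown, against 1835 and 1840 CPM in the control libraries, with 1591 CPM in the negative control. Of 10 mural cell markers 3 rose (Tagln, Acta2 and Pdgfrb) and 1 fell (Abcc9), with a median of -0.08. The blood and immune list (5 analysed) had 0 calls and sums of 25.5 and 24.4 CPM in the knockdown, against 33.1 and 29.5 CPM in the control libraries, and the nerve list (3 analysed) had 1 fall, Neurog2. The part of any of these in the values at the endothelial genes was not tested.

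**Figure D5:**
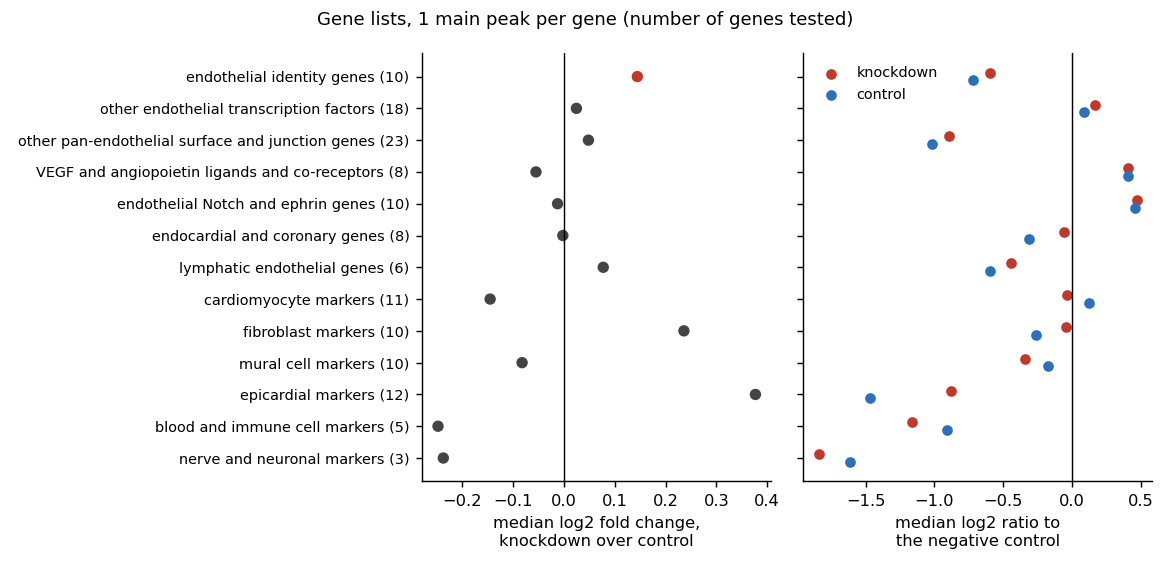
Median log2 fold change of knockdown over control (left) and median log2 ratio to the negative control in knockdown and control libraries (right) for each gene list, 1 main peak per gene, with the number of genes analysed in brackets. The endothelial identity genes, at 0.14, lie between the lymphatic list (0.08) and the fibroblast markers (0.24) on the left.

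The gene main peaks whose levels over the 5 libraries came nearest to the median profile of the 10 genes were sought among 12355 named genes with a mean of at least 5 CPM, by the Euclidean distance of log2(CPM + 1). They were Il6 (distance 0.06), Wnt11 (0.06), Gxylt2 (0.16), Ap1s3 (0.18) and Col23a1 (0.18). Il6 had 32.7 and 34.5 CPM in the knockdown libraries, against 30.5 and 28.3 CPM in the control libraries, with 44.1 CPM in the negative control. None of the 10 genes was itself as near to their median profile as these 5.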

How the data were processed

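CUT&RUN libraries were made with a commercial kit, per the labels' protocols, with Trim Galore and GRCm39 named in the submitters' processing notes. For the aligner, peak caller, counting and peak-to-gene rule nothing was stated. CPM per peak was deposited as 1 table of 5 libraries, in which 100% of values were whole multiples of the column's smallest step (within 1e-06), giving back whole reads. The 2 emptied lines of the table stayed in the totals, and 0 columns were left out. A genome-wide change cannot be read from CPM, whose totals are fixed. An H3K4 column stands for its group, not for a titled sample.

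Values were analysed as log2(CPM + 1), which understates changes of low peaks, keeping peaks that reached 1 CPM in 2 or more H3K4 libraries. Knockdown was compared with control by limma 3.58.1 (intensity trend, 2-sided, Benjamini-Hochberg over all tested peaks, threshold 0.05; SE from this fit), with edgeR 4.0.16 and DESeq2 1.42.0 on the recovered reads as alternatives, in R 4.3.3. The fit was tested on simulated data. Other settings were pseudocounts, filters, TMM, quantile, median and loess normalization, no trend, a replicate block, each library left out, and peaks summed per gene. Named genes were the 10 genes and, in each wider list, the 3 genes of smallest p and those that passed, up to 8; lists of other cell types are given by their counts, with names for up to 5 calls in a direction. Members and lists were chosen with earlier results of these data known. Sequences are from RefSeq (GRCm38.p6).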

Additional observations from a re-analysis of the deposited data

How the results depend on the processing

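The count of endothelial main peaks called was 0 in every setting run but 1. With the column number as a replicate block it was 1, Flt1 (log2 fold change 0.16, limma adjusted p = 0.029), and calls over all peaks rose to 3853; the libraries share only that number (correlation of deviations 0.12). Calls over all 1720 peaks moved to 495 when testing was limited to peaks 2-fold or more over the negative control, which leaves out all 10 genes, to 89 with TMM (also 89 in edgeR with TMM), 31 with median centring, 19 in DESeq2 and 0 with no trend (unadjusted p under 0.05 at 8226), and ranged from 349 to 801 with 1 library left out. A lone library is then taken to vary as the other group does. The count of genes at least 2-fold above the negative control moved from 0 to 3 in the knockdown and 1 in the control libraries with TMM, where Tie1 had a log2 ratio of 0.13 in the knockdown libraries. Without a call, Sox17 turned positive with quantile normalization (0.049), median centring (0.11), loess (0.052), DESeq2 (0.065) and without control library 4 (its range with 1 library left out was -0.30 to 0.044), and Vwf with TMM (0.027 in limma, 0.032 in edgeR), quantile normalization (0.071), median centring (0.17), loess (0.060) and DESeq2 (0.14). With all peaks of a gene summed, Pecam1 (-0.068) and Emcn (-0.0047) turned negative. The cause was not tested. The log2 difference of the summed main peaks stayed positive, from 0.06 with all tested peaks to 0.38 with median centring, and from 0.12 to 0.16 with 1 library left out. The negative control has the fewest reads in total, which limits the ratios to it.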
